A study of Mus musculus with 14 samples.

Results

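Chemokines and their receptors were followed across 14 arrays of mouse mammary tissue, of which 7 came from tumors of MMTV-neu mice, 4 from gland next to such tumors and 3 from wild-type gland. The family was taken from the gene symbols that the platform annotation gives to the array's 12488 probe sets: Ccl, Cxcl, Ccr, Cxcr or Ackr followed by a number, and Cx3cl1, Cx3cr1, Xcl1, Xcr1, Pf4 and Ppbp. It held 48 probe sets of 43 genes, of 8252 genes with a probe set of their own on the array: 25 ligands, 14 receptors and 4 atypical receptors. No probe set was matched to Ppbp. Probe sets shared by several genes were not counted as members.

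MMTV-neu mice carry the neu oncogene under the viral promoter MMTV, which is active in mammary epithelium. The tumor group held 5 mammary tumors of these mice (replicates 22, 24, 26, 50 and 52). Set B held 2 more MMTV-neu tumors (replicates 80 and 81), which the submitters added to see whether the first changes recurred. The adjacent group (AdjacentNeu) held 4 samples of MMTV-neu gland lying around a tumor and described as preneoplastic (replicates 23, 25, 49 and 51). The controls were 3 pools of wild-type gland (AMWT), each of RNA from 5 mice. Pool 40 was from mice of 31 weeks, 87.5% FVB and 12.5% CF-1 in background. Pools 41 and 42 were from mice of 41 weeks, 97% FVB and 3% CF-1. The labels give no age or strain for the tumors and adjacent glands, and do not say that each came from an animal of its own. The p-values therefore measure the spread between these samples, which may be partly technical, and the pools average over mice where the other samples do not.

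Chemokines are small secreted proteins that attract leukocytes through receptors coupled to G proteins. Each receptor marks certain cells: Cxcr2 neutrophils, Cxcr3 activated T cells and natural killer cells, Ccr2 inflammatory monocytes, Cx3cr1 monocytes and tissue macrophages. Atypical receptors (Ackr) bind chemokines without G-protein signaling and mostly remove or transport them. In the mammary gland, eosinophils and macrophages attend normal duct growth, and the Cxcl12 and Cxcr4 pair is known for its part in breast cancer cell migration.

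Each value is the intensity that the authors deposited for 1 probe set on 1 array. These intensities were set to a floor of 101.42 and taken as log2, and group means are means of those log2 values. Where only the lower of the groups compared had arrays under the floor, the difference is a lower bound in size. With arrays of both groups there it is no bound. Differences are log2, written as the first group minus the second, with the standard error of a limma fit over all 14 arrays. A probe set was called at an adjusted p (Benjamini-Hochberg, over the 8616 probe sets tested) under 0.05. Different probe sets have different brightness, so levels are compared between groups of arrays, not between genes.

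Array medians lay between 543.65 and 784.1, with the trimmed means alike, and arrays of 1 group correlated at 0.812 to 0.948, so no 2 of them were copies. The log2 ratio of 3′ to 5′ actin signal was 0.08 to 0.76 in tumors, 0.14 to 0.21 in set B, 0.38 to 1.52 in adjacent glands and 0.90 to 1.51 in wild-type pools. This measure of RNA quality moved with the groups, and its part in the results below was not tested. The arrays came from 5 lots, named in the labels. Tumors 22, 24 and 26 shared lot 2001815 with adjacent glands 23 and 25. Pool 40 shared lot 2004907 with adjacent glands 49 and 51. The remaining arrays had lots of their own by group: 2004097 for tumors 50 and 52, 2006609 for set B, and 2003877 for pools 41 and 42. For each called member, the difference with lot as a fixed block ("with lot as a block") is given beside it where it could be fitted. For set B, alone in its lot, it could not, and lot and group cannot be told apart there. A milder fit took lot as a random block, with an estimated correlation of 0.151 within lots, and was run for all comparisons. Both fits with lot ran over all probe sets tested, and their results are given here for members only.

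Of the 48 probe sets, 29 (60.4%) were expressed, meaning that 3 or more arrays read them above the array's own 40th percentile, against 69.4% of all non-control probe sets. They stood for 25 genes: 15 of 25 ligands, 6 of 14 receptors and 4 of 4 atypical receptors. The 18 genes with no expressed probe set were the ligands Ccl3, Ccl4, Ccl12, Ccl17, Ccl25, Cxcl2, Cxcl5, Cxcl10, Cxcl13 and Pf4 and the receptors Ccr3, Ccr4, Ccr6, Ccr7, Ccr8, Ccr9, Cxcr2 and Cxcr5. Their arrays were not all dim. Ccr6, the receptor of Ccl20, read 108, 220, 848 and 109.8 in the 4 adjacent glands, and Cxcl13, which draws B cells to follicles, read 27.6, 340.4, 809 and 360.1 there. Both were bright on adjacent gland 49 and dimmer on the other adjacent glands. Ccr6 also read 548.6 on tumor 22 and 294.5 on tumor 52. A 60th-percentile filter left 15 probe sets.

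**Figure D1:**
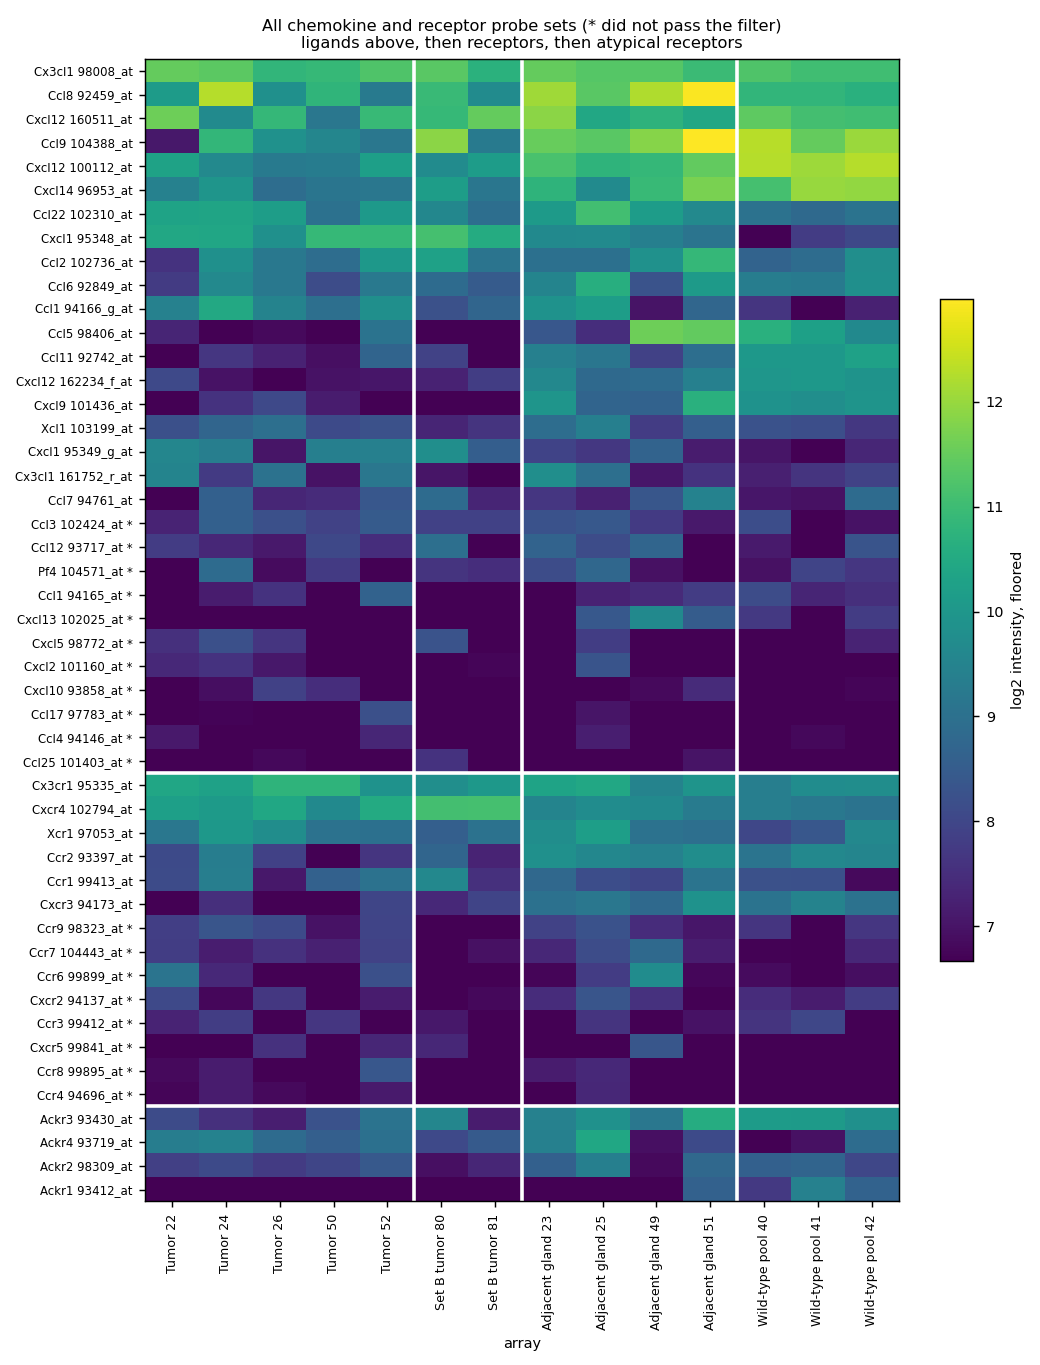
Heat map of the log2 intensity, floored, of all 48 probe sets (rows) on 14 arrays (columns, by group); rows are ordered within ligands, receptors and atypical receptors by mean, which says nothing of the relative amount of different genes. Expressed rows include some brighter to the left, such as Cxcl1 and Cxcr4, and more that are darker to the left, such as Cxcl9, Ccl11 and Cxcr3; rows marked * did not pass the filter.

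In tumors against wild-type pools, Cxcl1 and Cxcr4 were higher, and the ligands Cxcl14, Cxcl9, Ccl11, Ccl5 and Ccl9 were lower, with the receptors Cxcr3 and Ccr2 and the atypical receptors Ackr3 and Ackr1. Cxcl12 was lower by 2 of its 3 probe sets and not by the third, 160511_at. Of 29 probe sets, 6 were called higher (5 genes) and 11 lower (10 genes). Over all probe sets tested, 15.8% were called higher and 14.1% lower. The members' share called higher was 20.7% and that called lower 37.9%, but these shares describe only the members that had passed the filter on dim signal, and nothing is read from them. Of the 11 called lower, 8 were above the filter's percentile on fewer than 3 of the 5 tumors and so passed through arrays of other groups, and 4 of these (Ackr1, Cxcl9, Cxcr3 and Cxcl12 on 162234_f_at) were above it on no tumor. Ackr1 passed on 3 arrays in all, 1 adjacent gland and 2 pools.

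Cxcl1, a ligand of Cxcr2 that attracts neutrophils, was called higher on both of its probe sets. Probe set 95348_at read 1407, 1345, 911, 1919 and 1888 in tumors, against 53.3, 221 and 263 in wild-type pools. Every tumor was above every pool, and the lowest pool, 40, was under the floor. The difference was 3.00 ± 0.34 (SE, adjusted p = 6.88e-06), a rise of at least 7.99-fold, and 3.13 (adjusted p = 0.00367) with lot as a block. The second probe set of Cxcl1, 95349_g_at, read 759, 664, 131, 673 and 679.5 in tumors and 131, 27.2 and 163 in wild-type pools. Here tumor 26 lay among the pools and the other tumors above them. Its difference was 1.94 ± 0.56 (SE, adjusted p = 0.0153), with 1.74 (adjusted p = 0.551) under the lot block, and without pool 41 the call was lost (adjusted p = 0.0661, with differences of 1.77 to 2.42 over the arrays left out in turn). Cxcr2, the receptor through which Cxcl1 acts, did not pass the filter and read 69.4 to 319 over the 14 arrays.

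The promoter of Cxcl1 is shown beside that of Cxcl9, a ligand induced by interferon gamma that was lower in the same tumors, because both belong to the Cxcl gene group and went opposite ways. The sequences are RefSeq's, build GRCm38.p6, from 250 bases before the gene start to 50 after it (Cxcl1 chr5:90890995-90891294, plus strand; Cxcl9 chr5:92328030-92328329, minus strand). Capitals mark matches on either strand to the kappa-B letters GGGNNTTTCC or GGGNTTTCC, to TATAAA or to the GC box GGGCGG.
Cxcl1 promoter: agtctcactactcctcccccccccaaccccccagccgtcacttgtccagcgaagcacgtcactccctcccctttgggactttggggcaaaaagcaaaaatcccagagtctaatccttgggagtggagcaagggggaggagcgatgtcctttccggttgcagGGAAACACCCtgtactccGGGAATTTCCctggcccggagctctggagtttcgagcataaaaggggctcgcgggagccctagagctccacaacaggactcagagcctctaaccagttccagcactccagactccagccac
Cxcl9 promoter: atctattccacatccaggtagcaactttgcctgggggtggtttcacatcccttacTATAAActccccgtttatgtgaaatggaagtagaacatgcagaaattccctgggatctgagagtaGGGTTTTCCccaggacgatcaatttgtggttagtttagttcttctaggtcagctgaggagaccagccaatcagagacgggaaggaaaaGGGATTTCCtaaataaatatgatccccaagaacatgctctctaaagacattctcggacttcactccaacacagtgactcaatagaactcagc
Both windows held 2 matches to the kappa-B letters, and 2.88% of all 32851 promoters in the table held at least 1. Among the 37 promoters found for 35 of the 43 member genes, 6 held at least 1: those of Cxcl1, Cxcl2, Cxcl9, Ccl9, Ackr4 and Ccr3. Of these 6 genes, Cxcl1 was higher in tumors, Cxcl9 and Ccl9 were lower, Ackr4 was tested without a call, and Cxcl2 and Ccr3 did not pass the filter. A match is only a run of letters and shows no binding.

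**Figure D2:**
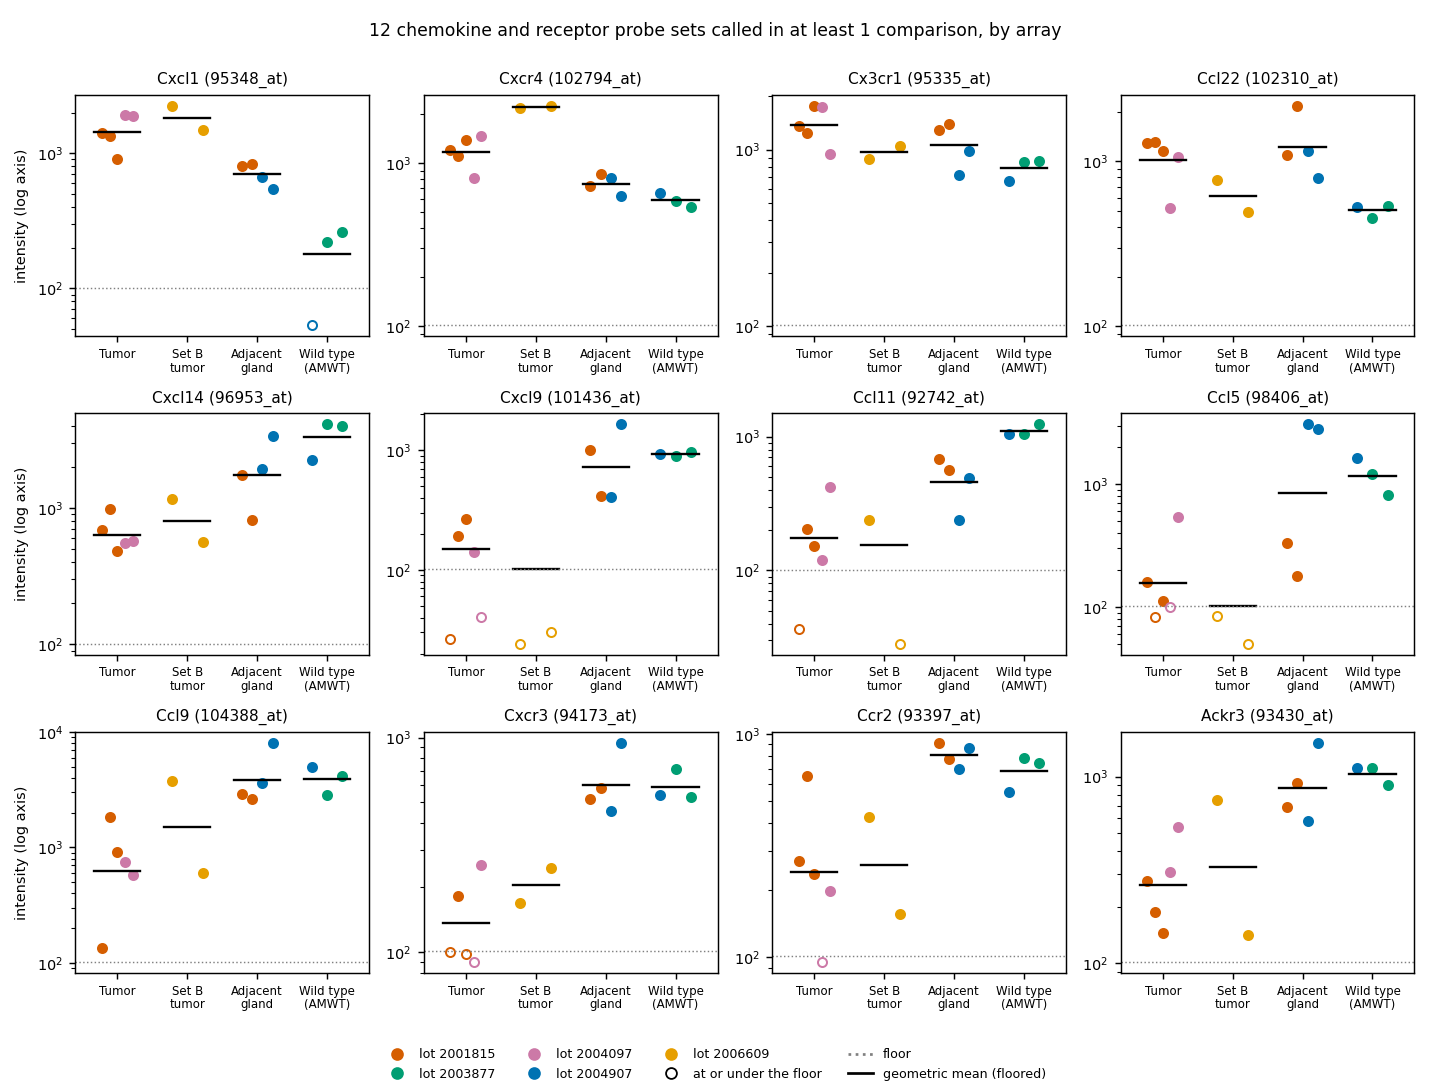
Intensity (log axis) of 12 called probe sets on each array, 1 point per array colored by array lot, with the geometric mean of floored values as a black bar and the floor as a dotted line. Cxcl1 was above every wild-type pool in all 7 tumors and all 4 adjacent glands, and Cxcl9 was below every wild-type pool in all 7 tumors.

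The other ligands called higher rested on less. Ccl22, a ligand of Ccr4 made by dendritic cells and macrophages, read 1289, 1317, 1159.8, 521 and 1059.5 in tumors and 528, 452 and 536 in wild-type pools. Tumor 50 lay among the pools and the other 4 tumors above them. The difference of 1.01 ± 0.35 (SE, adjusted p = 0.0386) was 0.56 (adjusted p = 0.751) with lot as a block. It was lost without any 1 of tumor 22, tumor 24, tumor 26, tumor 52, pool 40, pool 41 and pool 42 (differences of 0.92 to 1.25). Ccl1, a ligand of Ccr8, was called on probe set 94166_g_at only, with 698, 1418, 714, 505 and 892 in tumors and 199, 66.0 and 152 in wild-type pools. The groups did not overlap, and the difference was 2.45 ± 0.58 (SE, adjusted p = 0.00446). With lot as a block it was -0.01 (adjusted p = 0.999), near 0. On this probe set the adjacent glands of lot 2001815 read 950.1 and 1163, and those of lot 2004907 read 128.0 and 428. The second Ccl1 probe set, 94165_at, did not pass the filter and read 52.2, 141, 192, 63.8 and 404 in tumors and 281, 161 and 183 in wild-type pools.

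Among the receptors, Cxcr4, which binds Cxcl12, was higher. It read 1207, 1110.4, 1385, 809.8 and 1472 in tumors, against 657, 587 and 541 in wild-type pools, and every tumor was above every pool. On the log2 scale the mean was 10.20 ± 0.34 (SD, n = 5) in tumors and 9.21 ± 0.14 (SD, n = 3) in wild-type pools. The difference was 0.98 ± 0.23 (SE, adjusted p = 0.00409), or 1.98-fold, and 0.76 (adjusted p = 0.504) with lot as a block. Cx3cr1, the receptor of Cx3cl1, read 1356, 1235, 1763, 1736 and 942 in tumors and 660.1, 849 and 861 in wild-type pools. The groups did not overlap, though tumor 52 was close to pools 41 and 42. The difference of 0.81 ± 0.27 (SE, adjusted p = 0.0328) was 0.45 (adjusted p = 0.747) with lot as a block, and it was lost without any 1 of tumor 22, tumor 26, tumor 50, pool 40, pool 41 and pool 42 (differences of 0.68 to 0.94).

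Cxcl12, which retains and guides cells through Cxcr4, was measured by 3 probe sets that disagreed. Probe set 100112_at read 1273, 791, 605, 634 and 1197 in tumors and 4968, 4232 and 4945 in wild-type pools, with the highest tumor far under the lowest pool. Its difference was -2.46 ± 0.27 (SE, adjusted p = 5.27e-06), or 5.49-fold lower, and -2.35 (adjusted p = 0.0473) with lot as a block. Probe set 162234_f_at read 265, 127, 82.6, 126 and 133 in tumors and 1016, 1043 and 968 in wild-type pools, again without overlap. Its difference was -2.83 ± 0.36 (SE, adjusted p = 2.6e-05), and -2.83 (adjusted p = 0.0649) with lot as a block. Probe set 160511_at, which by rule stands for the gene because its mean log2 value over all 14 arrays, tumors included, was the highest of the 3, read 3069.8, 820.1, 1883, 573 and 1948 in tumors and 2706, 2202 and 2094 in wild-type pools. These groups overlapped, with tumor 22 above all 3 pools, and the difference was -0.73 ± 0.46 (SE, adjusted p = 0.247). Which transcripts of Cxcl12 each probe set reads was not analysed here.

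The promoters of this ligand and its receptor are shown because the called probe sets of the pair went opposite ways, Cxcl12 lower and Cxcr4 higher (RefSeq, GRCm38.p6; Cxcl12 chr6:117168285-117168584, plus strand; Cxcr4 chr1:128592250-128592549, minus strand). Capitals mark the same letters as above, with overlapping matches run together.
Cxcl12 promoter: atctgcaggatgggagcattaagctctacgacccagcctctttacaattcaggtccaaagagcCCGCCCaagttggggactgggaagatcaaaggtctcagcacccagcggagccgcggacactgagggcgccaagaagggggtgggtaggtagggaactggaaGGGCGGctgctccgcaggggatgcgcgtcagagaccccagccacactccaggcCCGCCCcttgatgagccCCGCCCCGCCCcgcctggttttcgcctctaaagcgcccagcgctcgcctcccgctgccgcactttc
Cxcr4 promoter: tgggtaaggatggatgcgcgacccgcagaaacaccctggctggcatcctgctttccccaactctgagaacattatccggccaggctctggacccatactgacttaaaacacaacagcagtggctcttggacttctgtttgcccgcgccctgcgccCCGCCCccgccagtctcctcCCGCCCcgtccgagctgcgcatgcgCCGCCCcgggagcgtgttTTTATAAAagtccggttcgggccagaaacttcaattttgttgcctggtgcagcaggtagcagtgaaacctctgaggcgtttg
The Cxcl12 window held 5 GC boxes and the Cxcr4 window 3, and neither held the kappa-B letters. GC boxes were in 35.7% of all promoters in the table and in 6 of the 37 member promoters. TATAAA, present in the Cxcr4 window, was in 13.6% of all promoters and in 11 of the 37.

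**Figure D3:**
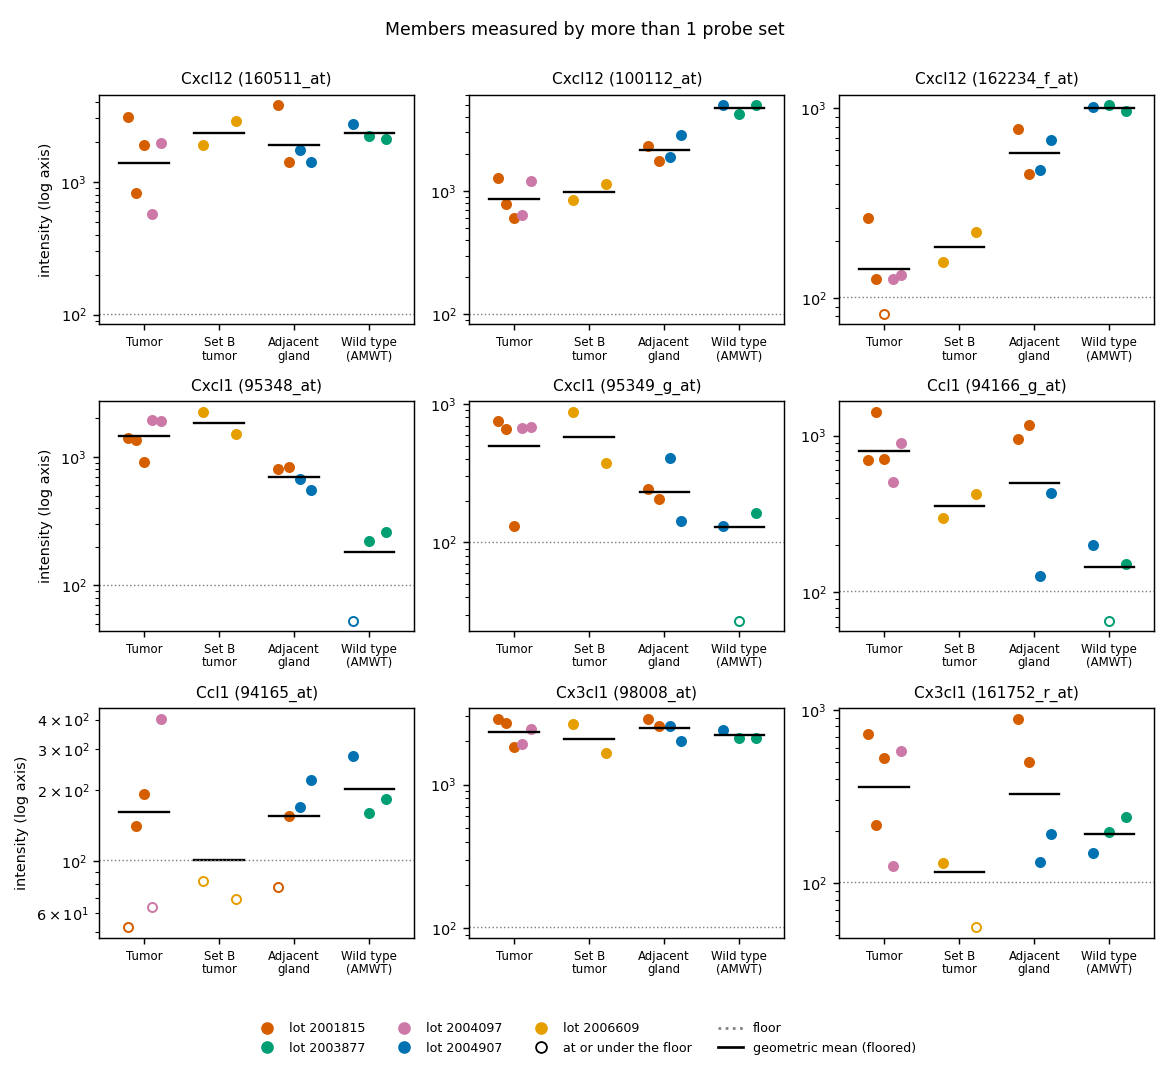
Intensity (log axis) by array of the 9 probe sets of Cxcl12, Cxcl1, Ccl1 and Cx3cl1, the genes with more than 1 probe set; points are arrays colored by lot, the bar is the geometric mean and the dotted line the floor. Cxcl12 is below all wild-type pools in the 7 tumors on 100112_at and 162234_f_at but not on 160511_at, and Ccl1 separates tumors from wild-type pools on 94166_g_at and not on 94165_at.

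A further 5 ligands were lower in tumors. Cxcl14, a chemokine made by many epithelia and by stroma, read 692, 989, 488, 552 and 573 in tumors and 2232, 4101 and 4006 in wild-type pools. All tumors were below all pools, and the difference was -2.38 ± 0.39 (SE, adjusted p = 0.00028), but -0.59 (adjusted p = 0.761) with lot as a block. Cxcl9 read 26.5, 193, 265, 142 and 40.8 in tumors and 939, 889 and 971 in wild-type pools, where the pools lay close together. The difference was -2.64 ± 0.47 (SE, adjusted p = 0.00058), a fall of at least 6.23-fold since tumors 22 and 52 were under the floor, and -2.10 (adjusted p = 0.33) with lot as a block. Ccl11, eotaxin, which draws eosinophils through Ccr3, read 36.7, 203, 154, 121 and 418 in tumors and 1051, 1044 and 1235 in wild-type pools. No tumor reached a pool, and the difference was -2.67 ± 0.48 (SE, adjusted p = 0.000603), with -3.70 (adjusted p = 0.0558) under the lot block.

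Ccl5, a ligand made by T cells and natural killer cells, read 159, 82.7, 113, 100.2 and 539.7 in tumors and 1635, 1211 and 814 in wild-type pools. Tumor 52 was the brightest tumor and still below all pools. The difference was -2.89 ± 0.82 (SE, adjusted p = 0.0147), but -0.16 (adjusted p = 0.971) with lot as a block, and without pool 40 the call was lost (adjusted p = 0.0627, with differences of -3.33 to -2.65 over the arrays left out in turn). Ccl9, a mouse ligand of Ccr1, read 134, 1848, 922, 755 and 580.1 in tumors and 5015, 2868 and 4157 in wild-type pools. The tumors spread widely, from tumor 22 near the floor to tumor 24, and none reached a pool. The difference was -2.63 ± 0.68 (SE, adjusted p = 0.00853), and -2.07 (adjusted p = 0.583) with lot as a block.

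Both lower receptors are carried by blood-borne leukocytes. Cxcr3, the receptor of Cxcl9, read 99.7, 183, 97.8, 89.6 and 253 in tumors and 538, 714 and 531 in wild-type pools. Tumors 22, 26 and 50 were under the floor, no tumor reached a pool, and the difference was -2.10 ± 0.40 (SE, adjusted p = 0.000986), with -1.86 (adjusted p = 0.296) under the lot block. Ccr2, the receptor of Ccl2, read 269.6, 651, 236, 95.4 and 199 in tumors and 550.4, 785 and 743 in wild-type pools. Tumor 24 lay among the pools, and the other tumors were lower. The difference was -1.50 ± 0.48 (SE, adjusted p = 0.0267), and -0.79 (adjusted p = 0.745) with lot as a block. Without tumor 52, pool 41 or pool 42 this call was lost (differences of -1.86 to -1.19).

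Of the 4 atypical receptors, 2 were lower and none higher. Ackr3, which removes Cxcl12, read 278, 188, 146, 307 and 534 in tumors and 1116, 1108 and 907 in wild-type pools. All tumors were below all pools, with a difference of -1.99 ± 0.51 (SE, adjusted p = 0.0078) and of -2.28 (adjusted p = 0.296) under the lot block. Without the 5 arrays of lot 2001815 it was -1.36 (adjusted p = 0.131). Ackr1, the Duffy antigen of venule endothelium and red cells, read 41.9, 100.1, 47.7, 39.8 and 47.7 in tumors, all under the floor, and 208, 698 and 402 in wild-type pools. It was therefore at least 3.83-fold lower (log2 difference -1.94 ± 0.55 (SE, adjusted p = 0.0145)). With lot as a block the difference was -0.06 (adjusted p = 0.989), and without pool 41 or pool 42 the call was lost (adjusted p up to 0.106).

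With lot as a block, 2 of the 17 calls between tumors and wild-type pools stood, those of Cxcl1 (95348_at) and Cxcl12 (100112_at). If lots 2004097 and 2004907, which differ by the order of the same digits, were the same lot, 4 stood. With the lots as labeled, the fit reaches from tumors to wild-type pools only through the adjacent glands and pool 40. With those lots taken as the same, tumors 50 and 52 share a lot with pool 40. Under the random block 15 of the 17 stood, and those of Ccl22 (adjusted p = 0.0855) and Cx3cr1 (adjusted p = 0.0745) were lost.

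**Figure D4:**
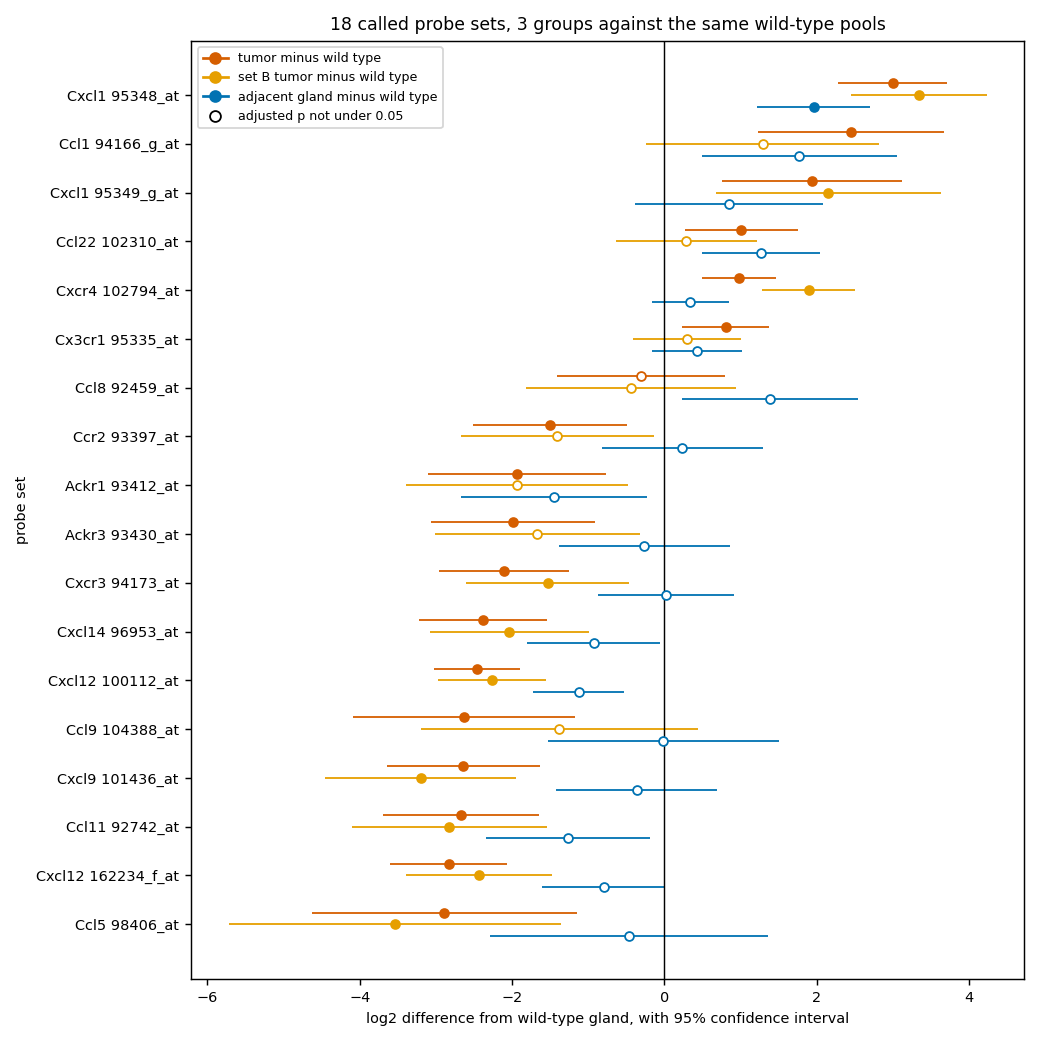
Log2 difference from wild-type gland of the 18 called probe sets (rows) for tumors, set B tumors and adjacent glands, with 95% confidence intervals from limma; filled points passed an adjusted p of 0.05. All 3 groups share the same 3 wild-type pools; Cxcl1 (95348_at) is filled in all 3, and the probe sets of the lower rows are filled in tumors and open in adjacent glands.

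Markers of cell types also differed between tumors and wild-type pools. Over all probe sets tested in that comparison, 15.8% were called higher and 14.1% lower. Of 9 fibroblast markers tested, 8 were called lower in tumors and none higher, and their summed intensity was 17672.2 to 41182.9 in tumors, 24125.3 to 24600.9 in set B, 103586 to 186706 in adjacent glands and 128292 to 156820 in wild-type pools. Of 9 endothelial markers, 7 were lower, and their sum was 6404.9 to 9180.9 in tumors, 5813.2 to 7573.7 in set B, 12291.9 to 26222 in adjacent glands and 24718.2 to 30314.4 in wild-type pools. The sum of 12 T cell markers, 11 of them besides Thy1, was 2127.1 to 3065.2 in tumors, 1827.5 to 1985.5 in set B, 5428.3 to 10632.8 in adjacent glands and 5726.2 to 6072.4 in wild-type pools. Only 3 T cell markers passed the filter. Thy1, also made by fibroblasts, was lower, with a log2 difference of -3.07 ± 0.44 (SE, adjusted p = 8.17e-05), while Cd4 had 0.06 (adjusted p = 0.938) and Zap70 0.71 (adjusted p = 0.153). Without Thy1 the sum was 1639.1 to 2536.8 in tumors, 1198.6 to 1358.7 in set B, 2334.3 to 6466.9 in adjacent glands and 1844.3 to 2940.7 in wild-type pools, so tumors and pools overlapped. In set B, Cd3d, Cd3g, Cd8a, Cd8b1, Cd2, Cd5 and Cd247 were at the floor on both arrays. Of 13 macrophage markers tested, 2 (15.4%) were higher and 2 (15.4%) lower, near the shares of all probe sets. The sum of all 15 measured was 36400.2 to 76304.1 in tumors, 40033.8 to 83111.6 in set B, 49740.5 to 86645.2 in adjacent glands and 54618.1 to 58707.7 in wild-type pools. Of 9 luminal epithelial markers, 7 were higher and 1 lower in tumors, and their sum was 76721.6 to 125777 in tumors, 71457 to 100396 in set B, 52268.7 to 84527.5 in adjacent glands and 48040 to 52108.7 in wild-type pools. The 1 called lower, Krt19, had a log2 difference of -5.78 ± 0.64 (SE, adjusted p = 5.95e-06). All 6 adipocyte markers tested were lower, with a sum of 3892.9 to 9439 in tumors, 4747.8 to 5661 in set B, 77175.4 to 129280 in adjacent glands and 156089 to 235600 in wild-type pools. Also lower were 5 of 6 skeletal muscle markers (1 higher), all 4 basal and myoepithelial markers tested and 3 of 4 mast cell markers (1 higher). The part of these cell types in the higher and lower ligands and receptors was not tested. In whole tissue, fewer cells of a type and less RNA per cell cannot be told apart.

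**Figure D5:**
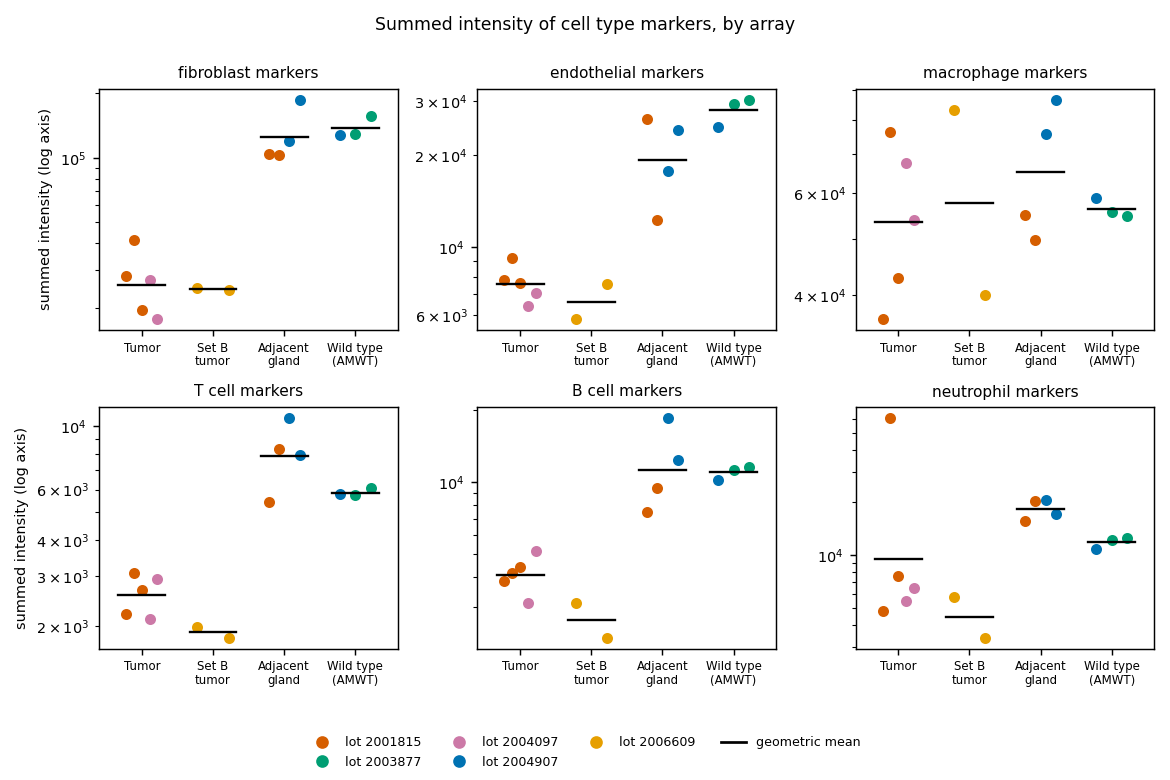
Summed intensity (log axis) of 6 lists of cell type markers on each array, points colored by array lot, with the geometric mean as a bar. Fibroblast, endothelial, T cell and B cell sums are lower in all 7 tumors than in the wild-type pools. Macrophage sums overlap between groups. Of 7 B cell markers tested between tumors and wild-type pools, 2 (Ighm and Jchain) were called lower and 1 (Pax5) higher. Tumor 24 has a neutrophil sum of 60442. The other tumors, at most 7564.9, and set B, at most 5759.7, lie below the wild-type pools, at 10871.6 to 12525.2. Of 6 neutrophil markers tested between tumors and wild-type pools, none was called higher and 1 lower. Of all probe sets tested there, 15.8% were called higher and 14.1% lower.

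Set B tumors differed from wild-type pools in the same direction on the members that were called. Of 29 probe sets, 3 were called higher, those of Cxcl1 and Cxcr4, and 7 lower, those of Cxcl12 (100112_at and 162234_f_at), Cxcl14, Cxcl9, Ccl11, Ccl5 and Cxcr3. Over all probe sets tested, 11.2% were called higher and 12% lower. The member counts again describe only members that had passed the filter, and nothing is read from them. Cxcl9, Ccl11, Ccl5, Cxcr3 and Cxcl12 on 162234_f_at were above the filter's percentile on neither set B tumor. The 10 called probe sets were all among the 17 called in the first tumors. Both comparisons share the 3 wild-type pools, so that is not a second measure of them.

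Cxcl1 (95348_at) read 2239 and 1497 in the 2 set B tumors, and was higher than in wild-type pools by 3.34 ± 0.42 (SE, adjusted p = 4.17e-05), at least 10.1-fold. Its second probe set read 878 and 377, with a difference of 2.15 ± 0.70 (SE, adjusted p = 0.0345), which was lost when any 1 of the 5 arrays compared was left out and with lot as a random block (adjusted p = 0.0657). Cxcr4 read 2169 and 2240.3, above every other array of the study. Its difference of 1.90 ± 0.28 (SE, adjusted p = 0.000206), or 3.72-fold, kept its call under all alternatives that could be fitted.

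Among the lower ligands, Cxcl12 read 842 and 1145 on 100112_at (log2 difference -2.26 ± 0.33 (SE, adjusted p = 0.000175)) and 156 and 224 on 162234_f_at (log2 difference -2.44 ± 0.45 (SE, adjusted p = 0.00117)). Probe set 160511_at again differed from these, with 1904 and 2850.2 and a difference of 0.01 ± 0.57 (SE, adjusted p = 0.995). Cxcl9 was under the floor on both arrays, at 24.2 and 30.5, and so at least 9.19-fold lower (log2 difference -3.20 ± 0.59 (SE, adjusted p = 0.00112)). Ccl5 was under the floor too, at 85.0 and 50.4, and at least 11.6-fold lower (log2 difference -3.53 ± 1.03 (SE, adjusted p = 0.0205)). This last call was lost without either set B tumor, pool 40 or pool 41.

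Ccl11 read 240 and 28.4 in set B, with a difference of -2.83 ± 0.60 (SE, adjusted p = 0.00313). Cxcl14 read 1162 and 562, with a difference of -2.04 ± 0.49 (SE, adjusted p = 0.00702). Both calls rested on tumor 81, the lower of the set B pair on each. Without it, the adjusted p was 0.0658 for Ccl11 and 0.121 for Cxcl14, and 5 probe sets in place of 10 were called. Cxcr3 read 169 and 247 in set B, and its difference of -1.53 ± 0.50 (SE, adjusted p = 0.0385) was lost when any 1 of the 5 arrays compared was left out and with lot as a random block (adjusted p = 0.0726). The other 8 of the 10 calls stood with that block.

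The members called in the first tumors and not in set B had 1 of 2 patterns. In the first, the 2 set B tumors differed widely, with set B tumor 80 nearer to the wild-type pools. Ccl9 read 3748 and 605 (log2 difference -1.38 ± 0.85 (SE, adjusted p = 0.278)), Ackr3 752 and 142 (log2 difference -1.67 ± 0.64 (SE, adjusted p = 0.0698)) and Ccr2 425 and 157 (log2 difference -1.40 ± 0.60 (SE, adjusted p = 0.104)). In the second, set B lay closer to the pools than the first tumors did. Ccl22 read 774 and 491, with a difference of 0.29 ± 0.44 (SE, adjusted p = 0.694), and Cx3cr1 887 and 1045, with 0.30 ± 0.33 (SE, adjusted p = 0.583). Ccl1 read 299 and 423 on 94166_g_at, with a difference of 1.29 ± 0.72 (SE, adjusted p = 0.222). Ackr1 fitted neither: at 33.4 and 32.3 it was under the floor on both arrays, at least 3.83-fold lower, with a difference of -1.94 ± 0.69 (SE, adjusted p = 0.0528).

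Set B was also set against the first tumors directly. No member was called in either direction, and none of the 8616 probe sets was (0%) by limma. Before adjustment, 932 of the 8616 had a p under 0.05, among them 3 of the 29 member probe sets. Nothing is read from that count. Cxcr4 had the smallest p of the members. It read 2169 and 2240.3 in set B, against 1207, 1110.4, 1385, 809.8 and 1472 in the first tumors, without overlap. The difference was 0.91 ± 0.26 (SE, adjusted p = 0.348), with a 95% interval of 0.36 to 1.47. The other 2 were a Cx3cl1 probe set, 161752_r_at, with a difference of -1.64 ± 0.74 (SE, adjusted p = 0.447), and Xcl1, which attracts dendritic cells that carry Xcr1, with -0.97 ± 0.45 (SE, adjusted p = 0.449). For Cxcl1 the interval of the difference between set B and the first tumors was -0.47 to 1.16, for Cxcl12 (100112_at) -0.45 to 0.85 and for Cxcl9 -1.72 to 0.59. For Cxcl9, both set B arrays and tumors 22 and 52 were under the floor. Its estimate and interval thus depend on the floor and bound the difference in neither direction. Differences within these intervals could not be told from none.

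Adjacent glands differed from wild-type pools on 1 member. Cxcl1 (95348_at) was called higher, and no member was called lower. Over all probe sets tested, 0.72% were called higher and 0.453% lower. Before adjustment, 8 of the 29 member probe sets had a limma p under 0.05, against 1273 of all 8616 tested. The member count describes only members that had passed the filter, and nothing is read from it.

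Cxcl1 read 804, 831, 670.2 and 548 in adjacent glands, against 53.3, 221 and 263 in wild-type pools. All 4 adjacent glands were above all pools and below all 5 tumors. On the log2 scale the mean was 9.46 ± 0.28 (SD, n = 4) in adjacent glands and 7.50 ± 0.73 (SD, n = 3) in wild-type pools. The difference was 1.96 ± 0.35 (SE, adjusted p = 0.0153), a rise of at least 3.9-fold. Within lot 2004907, adjacent glands 49 and 51 against pool 40 gave 2.58 (adjusted p = 0.0106), but pool 40 is 1 array, under the floor and the lowest of the pools, and is assumed there to vary like the other arrays. Without pool 40 the difference was 1.55, the lowest over the arrays left out, and the call was lost (adjusted p = 0.0568). Without the 5 arrays of lot 2001815 it was 1.75 (adjusted p = 0.0561). The second Cxcl1 probe set read 243, 206, 409 and 143 in adjacent glands, overlapping the pools, with a difference of 0.85 ± 0.58 (SE, adjusted p = 0.524).

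The other 7 members with an unadjusted p under 0.05 went both ways and passed no adjusted threshold. Ccl22 read 1098, 2162, 1149 and 795 in adjacent glands, all above the pools, with a difference of 1.27 ± 0.36 (SE, adjusted p = 0.101). Ccl8, which in mice is a ligand of Ccr8, read 4297, 2658, 4766 and 7861 against 1800.3, 1806 and 1627 in wild-type pools, again without overlap, with a difference of 1.38 ± 0.54 (SE, adjusted p = 0.251). Ccl1 (94166_g_at) had a difference of 1.77 ± 0.60 (SE, adjusted p = 0.176). Lower were Cxcl12, at 2302, 1761, 1882 and 2833 on 100112_at with a difference of -1.12 ± 0.28 (SE, adjusted p = 0.0621), and Ccl11, at 678, 566, 237 and 495 with -1.26 ± 0.50 (SE, adjusted p = 0.255), both with every adjacent gland below every pool. Cxcl14 read 1738, 820.3, 1938 and 3379, with a difference of -0.93 ± 0.41 (SE, adjusted p = 0.309). Ackr1 read 94.3, 72.8, 81.4 and 392, above the floor on adjacent gland 51 alone, with a difference of -1.45 ± 0.57 (SE, adjusted p = 0.254).

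The members that were lower in tumors and near the wild-type level in adjacent glands included both leukocyte receptors. Cxcr3 read 515, 579, 457 and 945 in adjacent glands, with a difference from wild-type pools of 0.03 ± 0.42 (SE, adjusted p = 0.987) and an interval of -0.87 to 0.92. Ccr2 read 915, 773, 696 and 866, with 0.24 ± 0.50 (SE, adjusted p = 0.855). Ccl9 read 2926, 2633, 3639 and 8083, with -0.01 ± 0.72 (SE, adjusted p = 0.996), and Cxcl9 1003, 413, 404 and 1642, with -0.36 ± 0.50 (SE, adjusted p = 0.767). Ackr3 read 691, 930.4, 578 and 1519, with -0.26 ± 0.53 (SE, adjusted p = 0.852). The intervals of these differences were wide, that of Ccl9 running from -1.53 to 1.51. Ccl5 split by lot: adjacent glands 23 and 25 (lot 2001815) read 335 and 179, and adjacent glands 49 and 51 (lot 2004907) read 3064 and 2816, against 1635, 1211 and 814 in wild-type pools. Its pooled difference of -0.47 ± 0.86 (SE, adjusted p = 0.835) averages over that split.

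Tumors against adjacent glands gave a comparison in which both sides carry the transgene. Cxcl1 was higher in tumors, and 11 probe sets of 10 genes were lower: Cxcl12 (100112_at and 162234_f_at), Cxcl14, Cxcl9, Ccl11, Ccl5, Ccl8, Ccl9, Cxcr3, Ccr2 and Ackr3. Over all probe sets tested, 5.34% were called higher and 9.04% lower. The members' shares of 3.45% and 37.9% describe only members that had passed the filter, and nothing is read from them. Of those lower, Cxcl9, Cxcr3 and Cxcl12 on 162234_f_at were above the filter's percentile on no tumor. Ccl11, Ccl5, Ccr2 and Ackr3 were above it on 1 tumor each. All of these passed through arrays of other groups. This comparison has a lot in common, 2001815, with tumors 22, 24 and 26 and adjacent glands 23 and 25, and within it 2 of the 12 calls stood, Cxcl12 (162234_f_at) and Cxcr3. Lot as a fixed block rests on that lot too and gives the same values. Under the random block 11 of the 12 stood, and that of Cxcl1 was lost (adjusted p = 0.0539).

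Cxcl1 (95348_at) was higher in every tumor than in every adjacent gland, by 1.03 ± 0.31 (SE, adjusted p = 0.0328) or 2.05-fold. Within lot 2001815 the difference was 0.55 (adjusted p = 0.343), and without that lot's 5 arrays 1.65 (adjusted p = 0.0344). The call was also lost without any 1 of tumor 22, tumor 50, tumor 52, adjacent gland 49 and adjacent gland 51 (differences of 0.92 to 1.20). Cxcr4 was higher by 0.64 ± 0.21 (SE, adjusted p = 0.0514), which missed the threshold, with tumor 50 among the adjacent glands.

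The lower members whose calls held under all alternatives that tested them were Cxcl12 (162234_f_at) and Cxcr3. On 162234_f_at, Cxcl12 read 265, 127, 82.6, 126 and 133 in tumors and 783, 451, 472 and 679 in adjacent glands, without overlap. The difference was -2.03 ± 0.33 (SE, adjusted p = 0.000544), and -1.98 (adjusted p = 0.0239) within lot 2001815. On 100112_at it was -1.33 ± 0.24 (SE, adjusted p = 0.00139), and -1.25 (adjusted p = 0.0574) within the lot, and on 160511_at -0.44 ± 0.42 (SE, adjusted p = 0.579). Cxcr3 was lower in every tumor than in every adjacent gland, with a difference of -2.13 ± 0.37 (SE, adjusted p = 0.00087), and -2.15 (adjusted p = 0.0256) within lot 2001815.

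Cxcl9, its ligand, was also lower without overlap, with a difference of -2.27 ± 0.44 (SE, adjusted p = 0.00187), and -1.89 (adjusted p = 0.0911) within the lot. Ccr2 was lower without overlap, with a difference of -1.74 ± 0.44 (SE, adjusted p = 0.0131), and -1.28 (adjusted p = 0.19) within the lot. Ccl9 was lower without overlap, with a difference of -2.62 ± 0.63 (SE, adjusted p = 0.0096), and -2.18 (adjusted p = 0.201) within the lot. Ackr3 was lower without overlap, with a difference of -1.72 ± 0.47 (SE, adjusted p = 0.0197), and -2.03 (adjusted p = 0.0764) within the lot, and the call was lost without tumor 26 or adjacent gland 51 (differences of -1.98 to -1.45). In all 4 the direction within the lot was that of all arrays, of which the lot's 5 arrays are a part. The adjusted p within the lot was above 0.05, with the spread estimated over all 14 arrays.

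Overlap between tumors and adjacent glands marked the rest. Cxcl14 was lower, with a difference of -1.46 ± 0.36 (SE, adjusted p = 0.012), and -0.78 (adjusted p = 0.337) within the lot, with tumor 24 above adjacent gland 25, and without adjacent gland 51 the adjusted p was 0.0527. Ccl8 read 1119.8, 4962, 920.2, 1776 and 609 in tumors, with tumor 24 among the adjacent glands, and was lower, with a difference of -1.69 ± 0.48 (SE, adjusted p = 0.025), but -0.97 (adjusted p = 0.477) within the lot. Its call was lost without any 1 of tumor 22, tumor 26, tumor 52, adjacent gland 49 and adjacent gland 51 (differences of -2.15 to -1.39). Ccl11 was lower, with a difference of -1.41 ± 0.44 (SE, adjusted p = 0.0439), a call that was lost under 11 of 14 alternatives, among them the lot at -2.08 (adjusted p = 0.0523). Ccl5 was lower, with a difference of -2.42 ± 0.76 (SE, adjusted p = 0.0416), lost under 8 of 14 alternatives, with -1.004 (adjusted p = 0.394) in lot 2001815 and -3.65 (adjusted p = 0.00305) without it. For Ccl5, the adjacent glands of lot 2001815 lay below tumor 52 and those of the other lot far above it.

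The 9 expressed genes that were called nowhere included ligands and receptors of monocytes. For Cx3cl1, the ligand of Cx3cr1, the 2 probe sets disagreed. On 98008_at, which stands for the gene, the mean log2 value was 11.17 ± 0.29 (SD, n = 5) in tumors, 11.02 ± 0.47 (SD, n = 2) in set B, 11.27 ± 0.22 (SD, n = 4) in adjacent glands and 11.11 ± 0.11 (SD, n = 3) in wild-type pools. Its difference of 0.06 ± 0.21 (SE, adjusted p = 0.848) between tumors and wild-type pools had an interval of -0.38 to 0.51. On 161752_r_at, which read 55.3 to 887 over the 14 arrays, the mean was 8.49 ± 1.08 (SD, n = 5) in tumors, 6.85 ± 0.26 (SD, n = 2) in set B, 8.35 ± 1.26 (SD, n = 4) in adjacent glands and 7.58 ± 0.35 (SD, n = 3) in wild-type pools. Ccl2, the ligand of Ccr2, averaged 9.11 ± 0.97 (SD, n = 5) in tumors, 9.69 ± 0.83 (SD, n = 2) in set B, 9.69 ± 0.89 (SD, n = 4) in adjacent glands and 9.12 ± 0.58 (SD, n = 3) in wild-type pools. Its difference in tumors was -0.01 ± 0.54 (SE, adjusted p = 0.993), with the wider interval of -1.16 to 1.14.

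Ccl6, a mouse ligand of Ccr1, averaged 8.79 ± 0.79 (SD, n = 5) in tumors, 8.68 ± 0.26 (SD, n = 2) in set B, 9.63 ± 1.01 (SD, n = 4) in adjacent glands and 9.47 ± 0.31 (SD, n = 3) in wild-type pools. Ccr1 averaged 8.44 ± 0.90 (SD, n = 5) in tumors, 8.58 ± 1.46 (SD, n = 2) in set B, 8.51 ± 0.53 (SD, n = 4) in adjacent glands and 7.75 ± 0.81 (SD, n = 3) in wild-type pools. Xcr1, the receptor of Xcl1, averaged 9.40 ± 0.47 (SD, n = 5) in tumors, 8.82 ± 0.34 (SD, n = 2) in set B, 9.49 ± 0.60 (SD, n = 4) in adjacent glands and 8.67 ± 0.83 (SD, n = 3) in wild-type pools. In all 3 the spread within a group was as large as most differences between groups. Ackr4, which removes Ccl19, Ccl21 and Ccl25, averaged 9.05 ± 0.36 (SD, n = 5) in tumors, 8.25 ± 0.28 (SD, n = 2) in set B, 8.72 ± 1.53 (SD, n = 4) in adjacent glands and 7.50 ± 1.22 (SD, n = 3) in wild-type pools. Its difference in tumors was 1.55 ± 0.65 (SE, adjusted p = 0.086). The others were Xcl1 (161 to 668 over the 14 arrays), Ccl7 (61.2 to 703), which also binds Ccr2, and Ackr2 (114 to 666), which removes inflammatory CC chemokines.

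Many members lie side by side in the genome. Whether neighbors moved together was not tested, since a gene not called or not expressed may still have moved. In the RefSeq gene order of build GRCm38.p6, allowing at most 2 other coding genes between them, 27 of the 43 genes fell into 7 runs. The first run held Ccl2, Ccl7, Ccl11, Ccl12, Ccl8 and Ccl1, of which Ccl11 was lower in tumors than in wild-type pools and Ccl1 higher on 94166_g_at, Ccl2, Ccl7 and Ccl8 were tested without a call and Ccl12 was not expressed. Another held Ccl5, Ccl9, Ccl6, Ccl3 and Ccl4, of which Ccl5 and Ccl9 were lower and Ccl6 was not called. In the run Ccl22, Cx3cl1 and Ccl17, Ccl22 alone was called. Cxcl1 lies with Cxcl5, Pf4 and Cxcl2, none of which was expressed. Cxcl9 lies next to Cxcl10, which read 17.7 to 236 over the 14 arrays and was not expressed. Cx3cr1, called higher, lies with Ccr8, which was not expressed. In the run Ccr9, Xcr1, Ccr1, Ccr3 and Ccr2, Ccr2 was lower, Xcr1 and Ccr1 were not called, and Ccr9 and Ccr3 were not expressed.

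Genes that act before or after the chemokines were called in both directions. Of 41 tested genes of receptor signaling, 9 (22%) were called higher in tumors than in wild-type pools and 3 (7.32%) lower, against 15.8% and 14.1% of all probe sets tested, with a median log2 difference of -0.05, where all probe sets had 0.16. The inhibitory G protein subunit Gnai1 was lower, with a log2 difference of -5.83 ± 0.35 (SE, adjusted p = 8.93e-09), and Gna14, a subunit of the Gq class, was higher by 1.96 ± 0.53 (SE, adjusted p = 0.0105). The kinase Src was higher by 1.73 ± 0.48 (SE, adjusted p = 0.0132) and Pik3cd, a leukocyte lipid kinase, by 1.58 ± 0.51 (SE, adjusted p = 0.0279). In set B, 4 of the 41 (9.76%) were higher and 4 lower against wild-type pools, near the 11.2% and 12% of all probe sets. In tumors against adjacent glands 2 (4.88%) were higher and 7 (17.1%) lower, against 5.34% and 9.04% of all, and in adjacent glands against wild-type pools none was called.

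Of 24 tested inducers of chemokine genes, 4 (16.7%) were higher in tumors than in wild-type pools and 5 (20.8%) lower, with a median of -0.18, against the same 15.8% and 14.1%. Irf7, an interferon-response factor, was higher by 1.87 ± 0.35 (SE, adjusted p = 0.000807). Il1r1, the interleukin-1 receptor, was lower, with a difference of -1.42 ± 0.26 (SE, adjusted p = 0.000774). Cebpb, a transcription factor of inflammatory genes, was higher by 1.18 ± 0.28 (SE, adjusted p = 0.00461), and Irf8, a factor of the monocyte lineage, was lower, with a difference of -1.13 ± 0.34 (SE, adjusted p = 0.0211). Of 17 other tested chemoattractants and their receptors, none was higher and 7 (41.2%) were lower in tumors than in wild-type pools, with a median of -0.285. Rarres2, the precursor of chemerin, was lower, with a difference of -4.98 ± 0.72 (SE, adjusted p = 7.68e-05), as was S1pr1, the receptor by which lymphocytes leave lymph nodes, with -1.79 ± 0.38 (SE, adjusted p = 0.00199).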

How the data were processed

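RNA of 14 mammary samples was hybridised to 1-color arrays, 1 sample each. The authors deposited 1 linear intensity per probe set and array; its software, not given in the sources used here, stays unnamed. The 2% trimmed mean was 1500.67 to 1500.9 on every array, so the deposited intensities were taken as scaled and not normalized again. Values were raised to a floor, the 20th percentile of all values pooled (101.42), before taking log2. Tests left out 66 control probe sets and any that fewer than 3 arrays read above the array's own 40th percentile, which left 8616. A fold is a lower bound where only the lower group has arrays at the floor. One limma model (version 3.58.1, R 4.3.3; lmFit, eBayes with trend) held the 4 groups, since groups of 2 to 5 arrays then share 1 spread estimate (residual degrees of freedom 10, prior 5.75). All p-values are two-sided, adjusted by Benjamini-Hochberg within each of 5 comparisons. Precision is limited by the number of arrays. The fit was tested on simulated data. Over the 5 comparisons it called 20% to 46% of simulated 2-fold changes and 66% to 84% of 4-fold changes. A member that was not called may therefore still differ. Alternatives changed the scaling, floor, filter, trend, lot terms, groups fitted and arrays kept. The family and the gene lists were chosen with earlier results of these data known. Every called member is described by array; of the expressed uncalled genes, the 6 with the highest mean are given by group mean, and up to 4 genes are named per pathway list. For genes with several probe sets that with the highest mean log2 value over the 14 arrays stands for the gene, and disagreement is stated. Gene order and promoters came from RefSeq (GRCm38.p6).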

Additional observations from a re-analysis of the deposited data

Results flagged for a closer look

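In groups of 4 or 5 arrays, a member's highest or lowest array was set against the gap expected of 1 group (Dixon's test at 95%, on log2 values). Chance flags about 1 in 20 groups whose values do not tie, and 5 of the 58 groups tested had such an array. Values set to the floor tie, so that rate does not hold for groups with several arrays there. Ackr1 read 392.1 on adjacent gland 51, against 72.8 to 94.3 on the other adjacent glands, all of them under the floor. With those tied at the floor, any value above it would have been flagged, so this flag carries no weight. Ccl5 read 539.7 on tumor 52, against 82.7 to 159 on the other tumors. Cxcl1 read 130.9 on tumor 26 on its second probe set, 95349_g_at, against 664 to 759 on the other tumors, while on 95348_at tumor 26 was at 911. Cxcl12 read 265.3 on tumor 22 on probe set 162234_f_at, against 82.6 to 133.0 on the other tumors. Ccl22 read 520.5 on tumor 50, against 1059.5 to 1317 on the other tumors. These arrays were kept in all comparisons.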

How the results depend on the processing

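Array lot changed the results most. With lot as a fixed block, 2 member probe sets were called between tumors and wild-type pools in place of 17, and 4 with lots 2004097 and 2004907 taken as the same. Between tumors and adjacent glands, 2 were called in place of 12 with that block, which there is the fit within lot 2001815 and no second check. With lot as a random block 15 of 17 stood, 11 of 12 between tumors and adjacent glands, 8 of 10 for set B against wild-type pools and the 1 between adjacent glands and wild-type pools. Ccl1 (94166_g_at) turned to -0.005 under the block between tumors and wild-type pools; the cause was not tested. A filter at the 60th percentile left 15 expressed probe sets and 11 calls between tumors and wild-type pools, since fewer were tested, and no filter left 7 between tumors and adjacent glands. Between adjacent glands and wild-type pools, 2 were called in place of 1 with arrays shifted to a common median, 0 with only the 2 groups compared and 0 without the 5 arrays of lot 2001815, an alternative added after seeing the data. Leaving out 1 array at a time gave 5 to 11 calls for set B against wild-type pools (5 without set B tumor 81), 0 to 2 for adjacent glands against wild-type pools (0 without pool 40) and 6 to 12 for tumors against adjacent glands (6 without adjacent gland 51). Of the 40 called differences, recomputed under the other alternatives, 411 of 501 values kept their call, 89 lost it and 1 reversed. With 1 array left out, 490 of 560 kept it and 70 lost it. A common median shifted all differences between adjacent glands and wild-type pools by -0.171 at the median. Of the probe sets called in that comparison, members or not, 34.1% were then higher in place of 61.4%. Between set B and the first tumors that shift was 0.17. No paired analysis was possible because the groups share no replicate numbers and the labels do not say which tumors and adjacent glands, if any, came from the same mouse. Signal near the floor, and 2 arrays in set B, limit what could be seen.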

Other observations

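Probe sets that read several chemokine genes at once stood outside the family as counted, and 1 of them moved. Probe set 103012_at, shared by copies of Ccl21, which guides T cells and dendritic cells through Ccr7, read 552, 608.5, 109.9, 116 and 206.5 in tumors, 72.9 and 87.1 in set B, 2162, 523, 2343 and 1784 in adjacent glands and 567, 537 and 319 in wild-type pools. Tumors differed from adjacent glands by -2.59 ± 0.56 on the log2 scale (SE, limma adjusted p = 0.00466), with tumors 22 and 24 above adjacent gland 25. Set B differed from wild-type pools by -2.18 ± 0.76 (SE, adjusted p = 0.0492), with both set B arrays under the floor, so the fall is a lower bound. Probe set 96950_at, shared by Ccl19, which also binds Ccr7, and related sequences, differed by -0.79 ± 0.31 (SE, adjusted p = 0.107) between tumors and adjacent glands. The probe sets of the Ccl27 copies and of Ccrl2 were called in no comparison.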
